A study of Saccharomyces cerevisiae with 24 samples.

Results

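The genes described here encode ribosome biogenesis factors of Saccharomyces cerevisiae. They were chosen by name: every gene whose symbol in the array's probe table is UTP, NOP, RRP or NOG followed directly by a number, with CBF5, GAR1, NHP2, IMP3 and IMP4 added. The rule found 49 genes of the 4069 tested, each printed as 2 spots. All 49 had a value on all 24 arrays, and no filter on brightness was applied. By the role of their products, 23 belong to the small-subunit processome and 40S assembly, 13 to 60S assembly, 2 to the box C/D and 4 to the box H/ACA small nucleolar ribonucleoproteins, and 7 to the exosome. UTP19 of the probe table is called NOC4 in the current catalogue and here. NOP56 and some other genes of these families were not analysed here.

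RNA came from 8 adaptive mutants made by evolutionary engineering for tolerance to biomass hydrolysates, the sugar-rich but growth-inhibiting liquor of digested plant material. Each mutant was hybridised with the RNA of a reference strain named for its fluorescent protein on 2-colour arrays. The DsRed reference served M1, PR-438, PR-338 and PR-164, the GFP reference served PG-132, PG-259 and PG-353, and the YFP reference served PY-231. There were 3 slides of 8 arrays, 1 array of each mutant per slide, which the series calls biological replicas. The replicate number is the slide. The mutant carried Cy5 on slides 1 and 3 and Cy3 on slide 2. Cells grew in glucose-free YNB minimal medium and in hydrolysate biomass at 1 g/mL, and the labels do not say which array had which medium. They also do not say how the mutants relate to each other, whether a mutant is a clone or a pool, or what its mutations are. A lower ratio can mean less RNA in the mutant or more in its reference.

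Ribosome production starts in the nucleolus, where RNA polymerase I makes a long precursor ribosomal RNA. The small-subunit processome folds and cleaves this precursor, the small nucleolar ribonucleoproteins guide its methylation and pseudouridylation, a series of GTPases, helicases and scaffold proteins mature the large subunit, and the exosome trims RNA ends and degrades by-products. In yeast the genes for these factors are known as a regulon that follows growth rate and nutrient supply and drops in many stresses.

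Values are log2 ratios of mutant over reference after the median of the probes with a gene symbol was subtracted from each array, so that 0 is the typical gene of that array. Each array held 15647 to 15737 spots with a ratio, of which 2.14% to 8.28% lay at or below 0 and could not be used. The difference between the 2 spots of a member had a median size of 0.19, with array medians of 0.09 to 0.38. The labels do not state the direction of the ratio on slide 2, and it was read as mutant over reference, which is likely because array medians lay at 2.44 to 5.41 there and at 0.22 to 1.41 elsewhere, and because markers of M1 (mating genes) and of PR-438 (chromosome VIII) kept their sign between slides 2 and 3. On slide 1, 3 marker readings stood apart from the same mutants' other slides. MFA2, which encodes the a-factor pheromone, had 0.07 on the array labelled M1 on slide 1, against 6.76 and 6.26 on M1's other arrays. Its highest value on slide 1 was 0.81, on the array labelled PR-438. The shift of chromosome VIII that marked PR-438 on slides 2 and 3 (0.44 and 0.46) was 0.01 on its slide 1 array and 0.42 on the array labelled PG-259 on slide 1. AAD3, an aryl-alcohol dehydrogenase gene at -1.28 or lower on all arrays of PR-338 and PR-164, had -2.60 on the array labelled PG-353 on slide 1, -1.30 on each of those labelled PG-259 and PG-132, and -0.91 on that labelled M1. Several results below are therefore also given without slide 1. The medians and counts by role are given with all 3 slides only.

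On 11 of 24 arrays the median ribosome biogenesis gene lay more than 0.2 from 0, and the 3 arrays of a mutant often disagreed. On slides 1, 2 and 3 the median member stood at -0.00, 0.52 and 0.22 in M1, at -0.63, -0.11 and -0.21 in PR-438, at -0.07, 0.37 and -0.08 in PR-338, and at 0.02, -0.05 and -0.52 in PR-164. It stood at -0.39, -0.10 and 0.68 in PG-259, at 0.07, -0.37 and -0.15 in PG-353, at -0.10, -0.18 and 0.27 in PG-132, and at -0.02, -0.28 and -0.16 in PY-231. PR-438 and PY-231 were thus the mutants with a median below 0 on every array, no mutant had a median above 0 on every array, and PG-259 held the lowest value of slide 1 after PR-438 and the highest of slide 3. The slide 1 arrays labelled M1, PR-438 and PG-259 are among those whose markers stood apart. On slides 2 and 3 alone M1 was above 0 on both, and PR-438, PR-164, PG-353 and PY-231 were below 0 on both. The SD between the 8 mutants' mean values was 0.18, and the pooled SD of 0.30 between arrays of a mutant gives a mean of 3 arrays a standard error of 0.17. Without slide 1 the SD between the mutants' means was 0.26, beside a standard error of 0.21 for a mean of 2 arrays. The mutants' means were thus spread about as widely as the arrays within a mutant would spread them with all slides, and by a somewhat larger SD without slide 1.

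**Figure D1:**
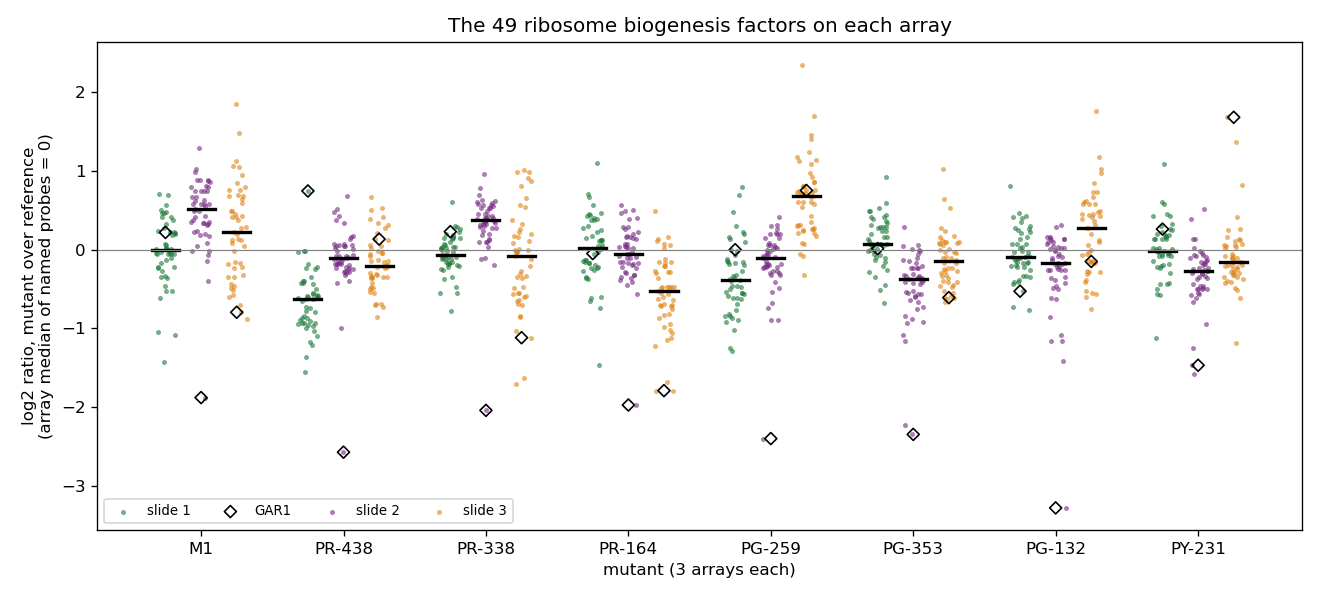
Log2 ratio of mutant over reference of the 49 ribosome biogenesis genes (1 dot each) on each of the 24 arrays, with the median as a bar and an open diamond at the value of GAR1. The members of an array lie close together, as on slide 3 of PG-259 with its median of 0.68, while GAR1 is the lowest member on slide 2 in every mutant but PY-231, where NOP10 is.

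Within an array the members were typically less spread than all genes, though not on every array by the same degree. The interquartile range of the members had a median of 0.41 over the 24 arrays and ran from 0.28 to 0.91, against a median of 0.57 for all genes. On slide 1, 1 of the 49 members of PR-438 lay above 0, namely GAR1, and on slide 3, 46 of the 49 members of PG-259 did. The fit over all arrays gave member medians of 0.19 in M1, -0.29 in PR-438, 0.02 in PR-338, -0.16 in PR-164, 0.08 in PG-259, -0.13 in PG-353, -0.01 in PG-132 and -0.13 in PY-231, where medians over all genes lay between -0.05 and 0.02. Without slide 1 these became 0.34, -0.15, 0.10, -0.26, 0.22, -0.26, 0.05 and -0.22 in the same order. With the opposite direction on slide 2 the medians of M1, PG-353 and PY-231 changed sign, to -0.10, 0.15 and 0.08. PR-438 kept a median below 0 under every alternative, between -0.15 and -0.41.

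Several mutants had most members on 1 side of 0. In M1, 43 of 49 fitted ratios were above 0, where 46.4% of all genes were, and 14 members lay above 0 on all 3 arrays, where 12.1% of all genes did. In PR-438, 3 of 49 were above 0, where 48.3% of all genes were, and 25 members lay below 0 on all 3 arrays, where 17.3% of all genes did. PR-164 had 6 of 49 fitted ratios above 0, where 46.5% of all genes were, PG-353 had 8, where 45.3% were, and PY-231 had 9, where 48.3% were. PY-231 had 14 members below 0 on all 3 arrays, where 10.6% of all genes were. The counts changed when slide 1 was left out. On both slides 2 and 3, 28 members lay above 0 in M1, where 21.8% of all genes did. Below 0 on both slides lay 29 members in PY-231 (21.8% of all genes), 29 in PG-353 (21.3%), 25 in PR-438 (28.1%) and 21 in PR-164 (19.8%). By that count PY-231 and PG-353 had more members on 1 side than M1 and PR-438 did. Genes of this regulon can shift together on an array, so these counts do not stand for 49 separate observations.

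**Figure D2:**
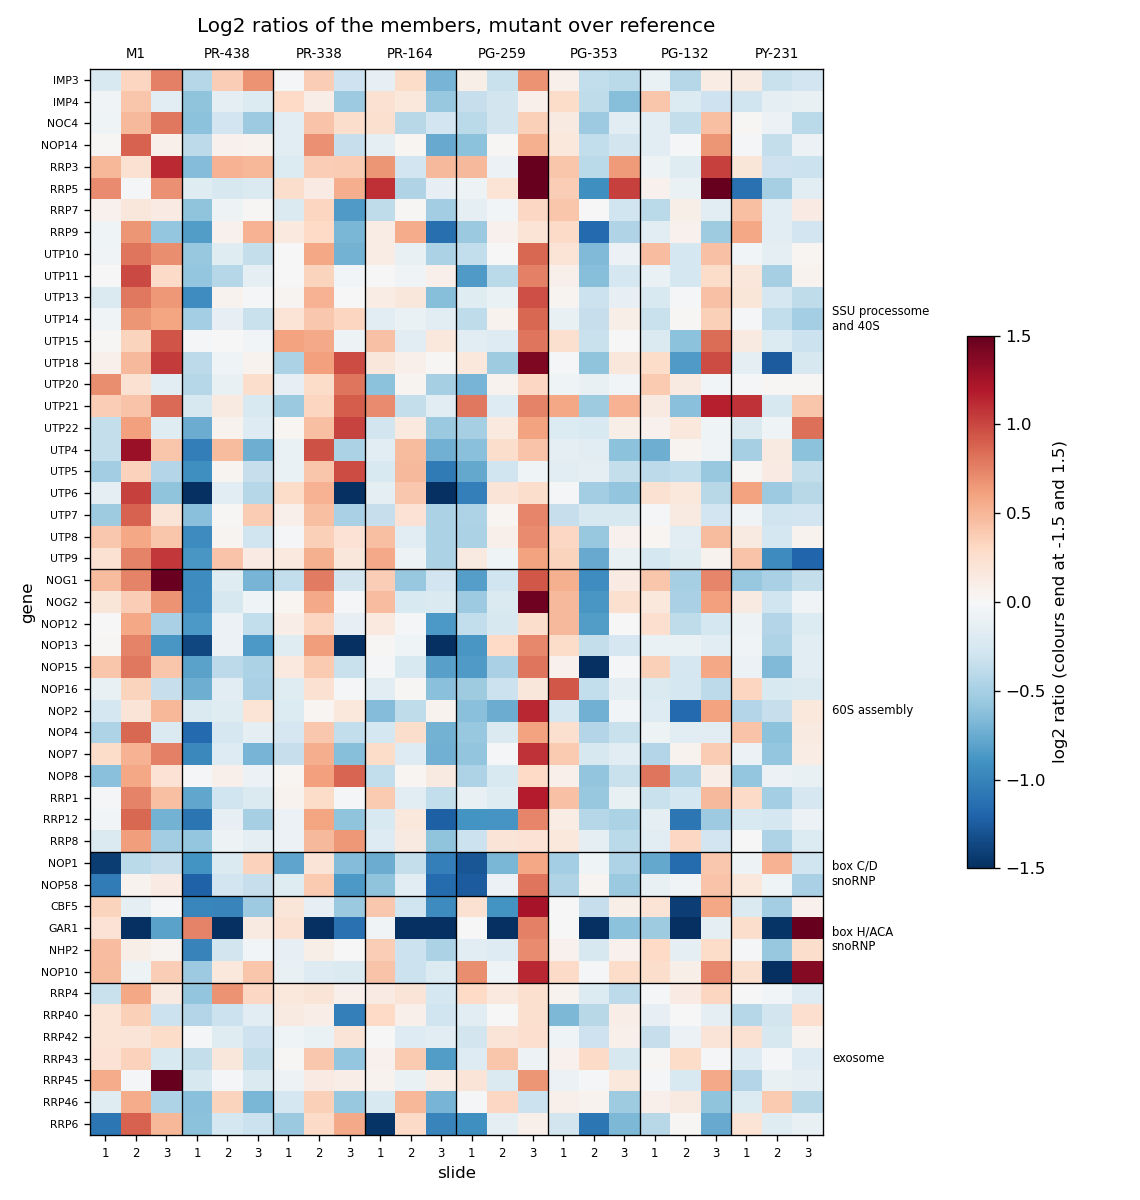
Log2 ratio of mutant over reference for each of the 49 genes, grouped by role, on the 24 arrays, with the colour scale in log2 units and values past its ends in the end colours. PR-438 on slide 1 is low (median -0.63) and PG-259 on slide 3 high (median 0.68) in most roles, and GAR1 is low on slide 2.

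In limma's moderated test, which adjusted p-values over all 4069 genes by Benjamini and Hochberg, no member passed an adjusted p of 0.05 in any single mutant. The share of all genes that passed was small too, at 0.246% in M1, 0.295% in PR-438, 0.123% in PR-338, 0.492% in PR-164, 0.0492% in PG-259, 0.0246% in PG-353, 0.221% in PG-132 and 0% in PY-231. At an unadjusted p of 0.05, 5 members each passed in M1 and PR-438, 3 in PR-338, 2 each in PR-164, PG-259 and PG-353, 1 in PG-132 and 0 in PY-231. All genes passed that mark at 14.3% in M1, 13.3% in PR-438, 10.7% in PR-338, 10.7% in PR-164, 8.77% in PG-259, 6.34% in PG-353, 12.9% in PG-132 and 2.53% in PY-231. In the mean of the 8 mutants 2 of 49 members were called, GAR1 and NOP1, both lower, where 13.3% of all genes were called and 11.2% were called lower.

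GAR1 (YHR089C, chromosome VIII) encodes a core protein of the box H/ACA particles, which place pseudouridines in ribosomal RNA. It fell in the mean of the 8 mutants by 1.16 ± 0.14 on the log2 scale (SE, limma adjusted p = 1.4e-05, 24 arrays). The fit treats the 24 arrays as independent although arrays of 1 slide were correlated, so this SE and p-value can be too small. On slides 1, 2 and 3 GAR1 had 0.22, -1.88 and -0.80 in M1, 0.74, -2.58 and 0.13 in PR-438, 0.23, -2.04 and -1.12 in PR-338, and -0.05, -1.98 and -1.79 in PR-164. It had -0.00, -2.40 and 0.75 in PG-259, 0.01, -2.35 and -0.61 in PG-353, -0.53, -3.28 and -0.15 in PG-132, and 0.26, -1.47 and 1.68 in PY-231. The low values therefore sat on slide 2, where all 8 arrays lay below every value of slide 1, and slide 3 spanned both signs.

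Slide 2 averaged -2.25 ± 0.54 for GAR1, against 0.11 ± 0.36 on slide 1 and -0.24 ± 1.10 on slide 3 (SD, n = 8 arrays each). Without slide 2 the mean of GAR1 over the mutants was -0.06 (limma adjusted p = 0.797), and with the opposite direction on slide 2 it was 1.09. The ribosomal protein genes swung between slides in the same way, with medians of -1.47 to -3.07 on slide 2, -0.01 to 1.44 on slide 1 and -0.56 to 2.12 on slide 3, and their part in the result for GAR1 was not tested. No other slide had the mutant in Cy3, so a dye effect and anything else particular to slide 2 cannot be told apart.

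Single mutants gave fitted GAR1 ratios of -1.18 in M1, -0.93 in PR-438, -1.34 in PR-338, -1.64 in PR-164, -0.92 in PG-259, -1.35 in PG-353, -1.69 in PG-132 and -0.21 in PY-231, each with an SE of 0.37. Each fitted ratio includes part of what the arrays of slide 2 had in common. None passed, and the smallest limma adjusted p-values were 0.0554 in PR-164 and 0.0804 in PG-132. With the slide as a block GAR1 passed in PR-164 (limma adjusted p = 0.0422), as it did there without PY-231 replicate 1 (0.0464) and in PG-132 without slide 3 (0.0109).

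The other box H/ACA genes lay on average nearer to 0 than GAR1 on slide 2, though NOP10 was the lower in PY-231. Where GAR1 averaged -2.25 on slide 2, CBF5 averaged -0.59 ± 0.46, NHP2 averaged -0.19 ± 0.22 and NOP10 averaged -0.25 ± 0.56 (SD, n = 8 arrays). CBF5 (YLR175W), the pseudouridine synthase itself, had -0.98, -0.99 and -0.55 on the 3 slides of PR-438, and a fitted ratio of -0.94 ± 0.29 (SE, limma adjusted p = 0.156, and 0.0154 after quantile normalization). All 3 arrays of PR-438 were low for CBF5, whereas the other mutants with the DsRed reference had both signs, from -0.94 to 0.40. The slide 1 array of PR-438 lacked its chromosome VIII shift, and the array labelled PG-259 that carried it had 0.22 for CBF5. On slide 2 CBF5 was below 0 in every mutant. Over the slides left out the CBF5 fit in PR-438 ran from -0.99 to -0.76. NHP2 (YDL208W), a core protein of the same particles, had its lowest value of the 24 arrays on slide 1 of PR-438, -0.27 and -0.04 on slides 2 and 3 there, and a fitted ratio of -0.48 ± 0.20 (SE, limma adjusted p = 0.306). The NHP2 fit in PR-438 ran from -0.64 to -0.16 over the slides left out, and -0.16 was the value without slide 1. The low fit thus rested mostly on the slide 1 array, which lacked the chromosome VIII shift. In the remaining mutants NHP2 was fitted between -0.18 and 0.16 with all slides, a range that includes the PR-438 value without slide 1. NOP10 (YHR072W-A), the smallest core protein, was fitted between -0.27 in PR-338 and 0.49 in PG-259, with no limma adjusted p under 0.75.

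**Figure D3:**
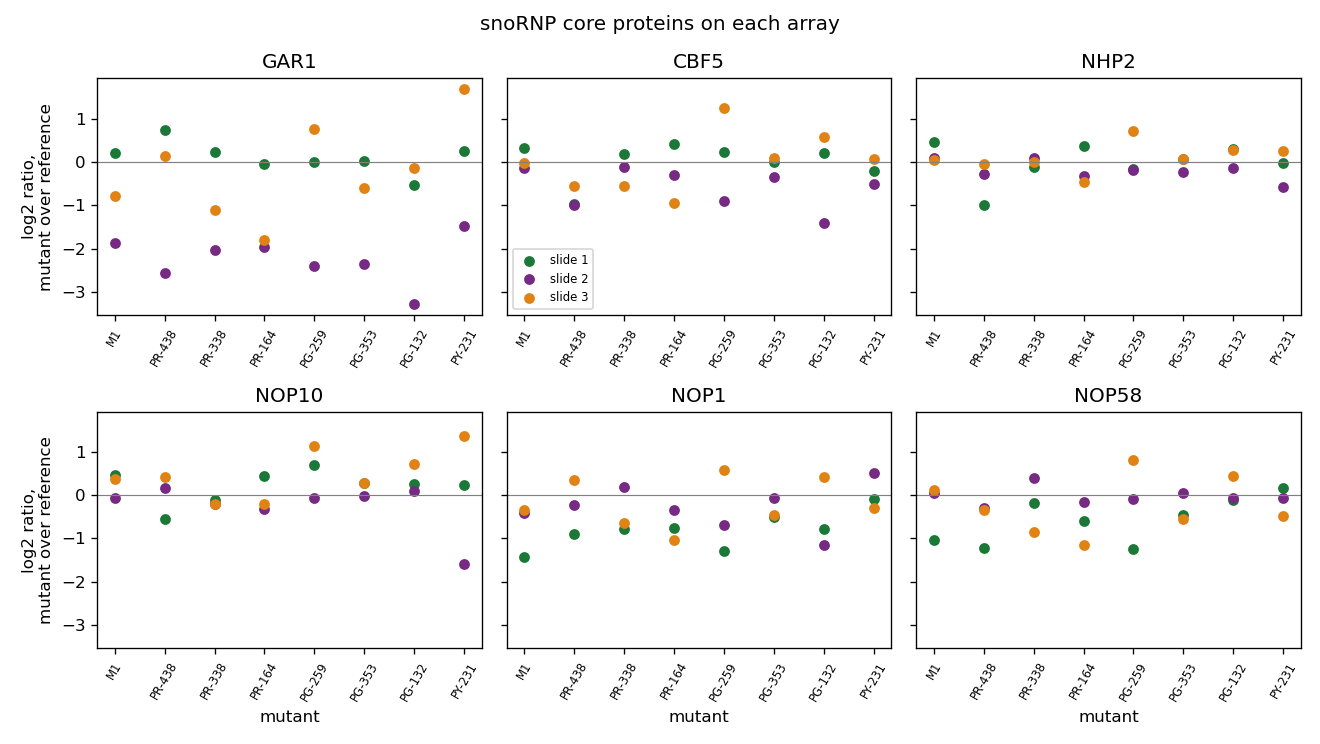
Log2 ratio of mutant over reference of the 6 snoRNP core genes (GAR1, CBF5, NHP2, NOP10, NOP1 and NOP58) in each mutant, with 1 point per slide. GAR1 lies between -3.28 and -1.47 on slide 2, and NOP1 lies below 0 in all 8 mutants on slide 1.

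NOP1 (YDL014W) encodes fibrillarin, the methyltransferase of the box C/D particles. It fell in the mean of the 8 mutants by 0.38 ± 0.12 (SE, limma adjusted p = 0.0462, 24 arrays). As for GAR1, this SE and p-value can be too small, because arrays of 1 slide were correlated. On slides 1, 2 and 3 NOP1 had -1.42, -0.40 and -0.35 in M1, -0.90, -0.22 and 0.34 in PR-438, -0.79, 0.19 and -0.65 in PR-338, and -0.75, -0.35 and -1.03 in PR-164. It had -1.29, -0.68 and 0.58 in PG-259, -0.51, -0.06 and -0.46 in PG-353, -0.77, -1.16 and 0.41 in PG-132, and -0.08, 0.52 and -0.30 in PY-231. NOP1 was below 0 on 19 of 24 arrays, on all 8 of slide 1, and in M1, PR-164 and PG-353 on each array. Its value of 0.34 on slide 3 of PR-438 is the mean of spots at -0.32 and 1.01, which differ in sign. The call rested on slide 1: without it the mean was -0.23 (limma adjusted p = 0.303), without M1 replicate 1 it was -0.35 (0.0619), without PY-231 replicate 1 it was -0.38 (0.061), and without the arrays labelled PR-438 and PG-259 on slide 1 it was -0.32 (0.0877). NOP58 (YOR310C), a scaffold protein of the same particles, was below 0 on 17 arrays, with slide means of -0.59 ± 0.53, -0.02 ± 0.20 and -0.26 ± 0.66 (SD, n = 8 arrays each). Its fitted ratios were -0.57 ± 0.30 in PR-164 and -0.55 ± 0.30 in PR-438 and lay between -0.26 and 0.15 elsewhere (SE, n = 3 arrays). None passed.

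Among the 23 genes of the small-subunit processome and 40S assembly, the median fitted ratio was 0.38 in M1, -0.26 in PR-438, 0.16 in PR-338, -0.11 in PR-164, 0.12 in PG-259, -0.15 in PG-353, 0.02 in PG-132 and -0.13 in PY-231. In M1, 22 of the 23 were above 0, and in PR-438, 21 of the 23 were below 0. UTP4 (YDR324C), a subunit of the complex that binds the precursor RNA first, had -0.35, 1.30 and 0.41 in M1, against -1.04, 0.48 and -0.73 in PR-438. M1 was the higher on each slide, though each mutant had both signs. NOC4 (YPR144C), a partner of NOP14 in 40S assembly, had -0.06, 0.49 and 0.79 in M1, against -0.61, -0.29 and -0.54 in PR-438. These values did not overlap, but NOC4 was named for its large moderated t in this pair. Its fitted ratio in PR-438 was -0.50 ± 0.20 (SE, limma adjusted p = 0.295).

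Other members of this role led in other mutants without passing the test. UTP5 (YDR398W), which acts in the same complex as UTP4, had -0.09, 0.42 and 0.98 in PR-338, with a fit of 0.50 ± 0.22 (SE, limma adjusted p = 0.411), and -0.39, -0.37 and -0.56 in PG-132, with a fit of -0.37 ± 0.22. UTP22 (YGR090W) had 0.03, 0.45 and 1.01 in PR-338 and a fit of 0.53 ± 0.24 (SE, limma adjusted p = 0.419). PR-338 was above 0 on all 3 arrays for UTP22 and on slides 2 and 3 for UTP5, with its highest values on slide 3. RRP5 (YMR229C), a large RNA-binding protein needed for both subunits, had 2.35 on slide 3 of PG-259 against -0.07 and 0.21 on slides 1 and 2, and -1.12, -0.50 and -0.16 in PY-231. Its fits of 0.72 ± 0.38 in PG-259 and -0.71 ± 0.38 in PY-231 had limma adjusted p-values of 0.651 and 0.998. RRP3 (YHR065C), an RNA helicase of the DEAD-box family, had 0.48, -0.09 and 1.70 in PG-259 and a fit of 0.62 ± 0.29 (SE, limma adjusted p = 0.56). The PG-259 values of both genes thus rested mostly on slide 3. In PY-231, UTP9 (YHR196W) had 0.42, -0.95 and -1.19 and UTP18 (YJL069C) had -0.15, -1.25 and -0.25, with fits of -0.59 ± 0.29 and -0.63 ± 0.31 (SE, limma adjusted p = 0.998 each).

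The 13 genes of 60S assembly had median fitted ratios of 0.08 in M1, -0.47 in PR-438, 0.01 in PR-338, -0.21 in PR-164, -0.10 in PG-259, -0.12 in PG-353, -0.03 in PG-132 and -0.18 in PY-231. All 13 were below 0 in PR-438 and in PR-164. NOG1 (YPL093W), a GTPase of early large-subunit particles, had 0.47, 0.75 and 1.48 in M1, against -0.94, -0.18 and -0.70 in PR-438. It was the member with the widest gap between these mutants, with every M1 array above every PR-438 array. NOG1, NOP7 and NOC4 were named for their large moderated t in this pair, so their lack of overlap follows in part from that choice. The share of all genes without overlap was not counted. The slide 1 arrays, whose markers stood apart, are included. In M1 the fit of NOG1 was 0.86 ± 0.33 (SE, limma adjusted p = 0.24). NOP7 (YGR103W), the yeast homologue of pescadillo and a scaffold of the same particles, had 0.28, 0.52 and 0.76 in M1, against -0.96, -0.19 and -0.70 in PR-438, again without overlap. NOP15 (YNL110C), an RNA-binding factor of these particles, had 0.07, -2.22 and -0.03 in PG-353, so that its fit of -0.78 ± 0.33 (SE, limma adjusted p = 0.76) came from slide 2. RRP12 (YPL012W), which takes part in the export of both subunits, had -0.14, -1.09 and -0.55 in PG-132 with a fit of -0.55 ± 0.33 (SE, limma adjusted p = 0.513).

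The 7 exosome genes had median fitted ratios between -0.20 in PR-438 and 0.16 in M1. RRP45 (YDR280W), a subunit of the exosome ring, had 0.56, -0.01 and 1.85 in M1 and a fit of 0.75 ± 0.23 (SE, limma adjusted p = 0.141). The M1 value of slide 3 was the highest of the 24 arrays for RRP45, and without that slide the fit was 0.27 (limma adjusted p = 0.636), while without slide 2 it was 1.20 and passed (limma adjusted p = 0.0426). RRP6 (YOR001W), the nuclear exonuclease of the exosome, had -1.47, 0.28 and -0.99 in PR-164 and -0.28, -1.09 and -0.67 in PG-353. Its fits of -0.66 ± 0.31 and -0.61 ± 0.31 in these mutants did not pass (SE, limma adjusted p = 0.464 and 0.816), and PG-353 was low on all 3 arrays while PR-164 was not. The remaining 5, RRP4, RRP40, RRP42, RRP43 and RRP46, ranged from -1.03 to 0.68 over all arrays.

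Mutants with the same reference were compared directly, since the reference, the dye and what a slide shares drop out of the difference on a slide. There were 9 such pairs, which share arrays: those of M1, for example, enter 3 pairs. No member passed an adjusted p of 0.05 in limma in any pair, nor did any other gene (0% called in each pair). The moderated F tests among the 4 mutants with the DsRed reference and among the 3 with the GFP reference called no member either (0% of all genes in each). At an unadjusted p of 0.05 the F tests passed 4 members (5.53% of all genes) and 0 members (1.01%), in that order.

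M1 minus PR-438 was the pair with the most members at an unadjusted p of 0.05, namely 13 of 49, all higher in M1, where 5.9% of all genes were higher and 7.32% lower at that mark. This count includes the slide 1 arrays of both mutants, whose markers stood apart. Neither the count nor the order of the pairs is given without slide 1. The median member was 0.61, 0.55 and 0.28 higher in M1 than in PR-438 on slides 1, 2 and 3. M1 was the higher for 29 members on all 3 slides and the lower for 1, where 16.4% of all genes were higher and 15.4% lower. On slides 2 and 3 alone 32 members were higher in M1 on both and 3 were lower, where 24.2% of all genes were higher and 22.7% lower.

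Fitted differences between M1 and PR-438 led with NOG1 at 1.51 ± 0.46, NOC4 at 0.88 ± 0.29, RRP45 at 0.96 ± 0.32, NOP7 at 1.14 ± 0.40 and UTP4 at 0.88 ± 0.32 (SE, n = 3 arrays each). Their limma adjusted p-values were 0.233, 0.233, 0.239, 0.255 and 0.287, and none passed. NOG1 was 1.41 higher in M1 than in PR-438 on slide 1 and 2.18 higher on slide 3. Without slide 1 its difference was 1.56 (limma adjusted p = 0.784), without slide 2 it was 1.79 (0.17) and without slide 3 it was 1.17 (0.477). For RRP45 the difference without slide 3 was 0.40 (0.57). All 23 genes of the small-subunit role and all 13 of 60S assembly had a positive fitted difference, with medians of 0.66 and 0.61, while the 7 exosome genes had a median of 0.39 and NOP1 and NOP58 lay at -0.47 and 0.32.

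In several other pairs the member median changed sign between slides, while PR-438 minus PR-338 and M1 minus PR-338 kept theirs. For M1 minus PR-164 the member median was -0.08, 0.51 and 0.75 on slides 1, 2 and 3, and 45 members were higher in M1 on both slides 2 and 3 and 0 lower, where 26.8% of all genes were higher and 31.3% lower. For PR-338 minus PR-164 it was -0.03, 0.39 and 0.38, with 33 members higher in PR-338 on both slides 2 and 3 and 0 lower, where 26.3% of all genes were higher and 19.1% lower. PR-164 was thus low against M1 and PR-338 on slides 2 and 3, with medians close to theirs on slide 1. PR-438 minus PR-338 gave -0.58, -0.43 and -0.03, with 24 members lower in PR-438 on all 3 slides and 0 higher, where 17.4% of all genes were lower and 13.1% higher. On slides 2 and 3 both, 27 members were lower in PR-438 and 3 higher, where 26.1% of all genes were lower and 20.8% higher. PR-438 minus PR-164 gave -0.71, -0.07 and 0.36, a change of sign between slides. M1 minus PR-338 gave 0.05, 0.16 and 0.35, with 11 members higher in M1 on all 3 slides and 2 lower, where 9.37% of all genes were higher and 14.7% lower. On slides 2 and 3 both, 24 members were higher in M1 and 3 lower, where 19.0% of all genes were higher and 25.8% lower.

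Among the mutants with the GFP reference, PG-259 minus PG-353 gave member medians of -0.53, 0.27 and 0.81 on slides 1, 2 and 3, and all 49 members were higher in PG-259 on slide 3. On slides 2 and 3 both, 39 were higher in PG-259 and 0 lower, where 26.4% of all genes were higher and 27.9% lower. The array labelled PG-259 on slide 1, where 9 of the 49 were higher, carried the chromosome VIII shift seen in PR-438. PG-259 minus PG-132 gave -0.32, 0.08 and 0.49, and PG-353 minus PG-132 gave 0.23, -0.25 and -0.41. In each of the 3 pairs slide 1 had the opposite sign to slides 2 and 3. At an unadjusted p of 0.05 these pairs had 0 members, where 1.28%, 1.33% and 1.62% of all genes passed, in the order given.

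**Figure D4:**
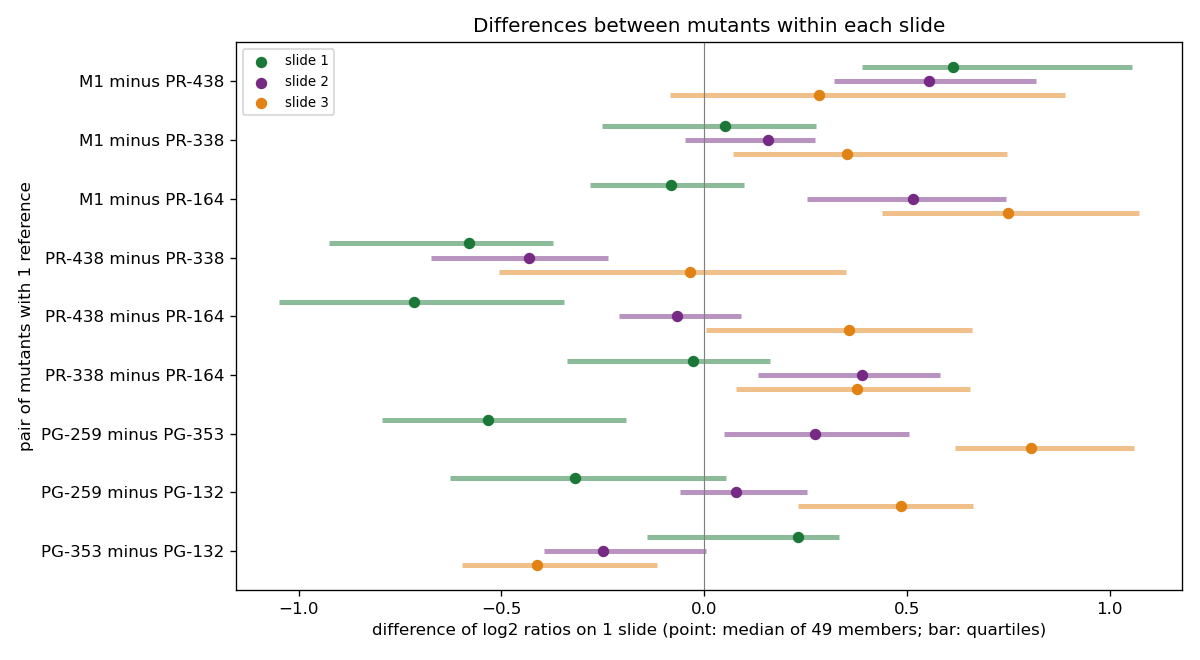
Difference in log2 ratio between mutants with the same reference for the 49 genes, for 9 pairs and 3 slides, with the median as a point and the range between the quartiles as a bar. M1 lies above PR-438 on each slide (medians 0.61, 0.55 and 0.28), while PG-259 lies below PG-353 on slide 1 (-0.53) and above it on slide 3 (0.81).

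PR-438 also differed by the chromosome that a member lies on, a pattern noticed after the values were seen. The 3 members with a fitted ratio above 0 in PR-438 were IMP3 (YHR148W) at 0.20, RRP4 (YHR069C) at 0.17 and RRP3 (YHR065C) at 0.05, and all 3 lie on chromosome VIII. IMP3 is an RNA-binding protein of the processome and RRP4 an RNA-binding cap subunit of the exosome. The other members on that chromosome, NOP10, UTP9 and GAR1, had -0.09, -0.12 and -0.93, and the fitted ratios of the 43 members elsewhere were all below 0. On the single arrays, 0, 13 and 8 of these 43 lay above 0 on slides 1, 2 and 3. All genes on chromosome VIII had a median of 0.28 in PR-438, with 72.7% above 0, against -0.02 and 47.1% for genes elsewhere.

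By slide, the 6 members on chromosome VIII had medians of -0.57, 0.40 and 0.36 in PR-438, against -0.63, -0.12 and -0.22 for the 43 members elsewhere. All genes of the chromosome had 0.02, 0.44 and 0.48, against 0.01, -0.01 and 0.01 elsewhere. The members on chromosome VIII were thus set apart on slides 2 and 3 and not on slide 1. On the array labelled PG-259 on slide 1 they had a median of 0.22, against -0.46 for the other 43.

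**Figure D5:**
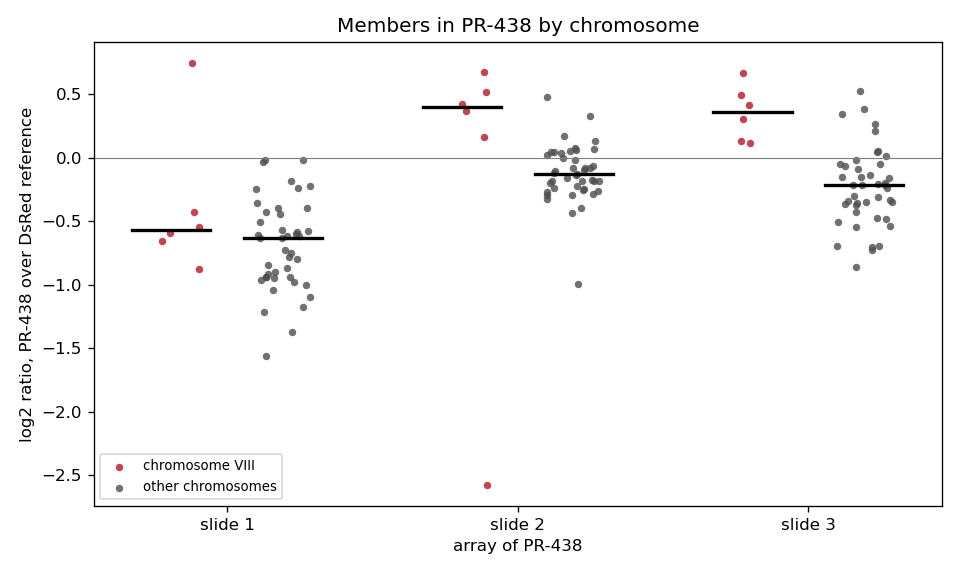
Log2 ratio of mutant over reference in PR-438 of the 6 members on chromosome VIII and the 43 members on other chromosomes, by slide, with medians as bars. On slides 2 and 3 the 6 members sit higher (medians 0.40 and 0.36, against -0.12 and -0.22), and on slide 1 both groups are low (-0.57 and -0.63). GAR1 is the point far from the other 5 on slides 1 (0.74) and 2 (-2.58).

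Other genes of the pathway that the naming rule does not reach stood close to the members on each array. The 73 other assembly factors measured, 30 of the 40S and 43 of the 60S pathway, had a median of the same sign as the members on 22 of the 24 arrays, and the gap between both medians had a median size of 0.05 and reached at most 0.12. Their fitted medians were 0.29 in M1, -0.32 in PR-438, 0.11 in PR-338, -0.14 in PR-164, 0.04 in PG-259, -0.16 in PG-353, -0.03 in PG-132 and -0.11 in PY-231. None of the 73 was called in any single mutant or in the mean of the 8 mutants by limma. At an unadjusted p of 0.05, 11 of them were higher in M1 and 6 were lower in PR-438, where 4.01% of all genes were higher and 8.45% lower. The 15 RNA polymerase I genes, which include subunits and initiation factors, had fitted medians of 0.18 in M1, -0.13 in PR-438 and between -0.11 and 0.06 elsewhere, and none was called. The 5 other exosome genes had none called either.

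The 135 cytosolic ribosomal protein genes did not follow the assembly factors from array to array. Their median was -2.72 on slide 2 of M1, where the members' median was 0.52, and 1.05 on slide 1 of PR-438, where the members' median was -0.63. On slide 3 of PG-259 both were high, at 1.69 for the ribosomal protein genes and 0.68 for the members. In the mean of the 8 mutants 87 of the 135 ribosomal protein genes were called lower, against 2 of the 49 members, where 11.2% of all genes were called lower. That mean gives slide 2, where the ribosomal protein genes had their lowest medians, the weight of slides 1 and 3 combined. No count without slide 2 is given here.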

How the data were processed

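The study measured RNA of 8 mutants against 3 reference strains on 24 2-colour arrays, whose number sets the precision. The authors deposited 15744 probe values per array in a unit of their own, other than a log ratio: they read as linear quotients of both channels, some at or below 0, unscaled between arrays. This was taken from the values, and the sources used here do not give the steps behind them. Ratios above 0 were put on the log2 scale, the median over probes with a symbol was subtracted array by array, and the spots of a gene were averaged. Of the probes 8152 carried 1 symbol and 7592 none; 129 of 4073 symbols were matched through a synonym and 4 stayed unmatched, which gave 4069 genes, 4036 of them on all arrays. Chromosomes and locus tags come from the RefSeq catalogue of the R64 assembly.

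A linear model was fitted with lmFit and eBayes of limma 3.58.1 (R 4.3.3) over all arrays, with 1 coefficient for each mutant and 1 for dye orientation, Benjamini-Hochberg adjustment over all genes and a threshold of 0.05. Testing a ratio against 0 ignores how far the reference cultures vary. Cy3 marked the mutant on slide 2 alone, and the dye coefficient takes up only part of what that slide's arrays have in common. The rest enters the fitted ratio of every mutant. In the mean of the 8 mutants slide 2 weighs as much as slides 1 and 3 combined. The median residual SD was 0.379 with 15 residual degrees of freedom. The fit was tested on simulated data with independent noise on each array and changes planted in M1 alone. That test did not cover the correlation between arrays of a slide. Tables and figures used Python 3.11.15.

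The genes named are members past the threshold, the 3 members of largest moderated t in each mutant, the snoRNP core genes, and the 5 members of largest moderated t over the 9 pairs. The members, gene lists and tests were chosen with earlier results of these data known. The replicate number marks a shared slide per the labels, so the slide pairs the arrays: deviations from the mutant means correlated above 0.1 in 73 of 84 pairs of arrays with the same number (median 0.50, lowest -0.26). Between mutants that shared a reference and a dye orientation, arrays correlated at -0.17 or more (median 0.35 over 45 pairs). The mean profiles of the slides correlated at -0.51 (slides 1 and 2), 0.63 (1 and 3) and -0.53 (2 and 3). Alternatives left out a slide or single arrays, turned slide 2, dropped the dye term, added the slide as a block, and changed the centring, normalization, brightness correction, probe averaging, filter on missing values, treatment of values at or below 0, and the arrays in the fit.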

Additional observations from a re-analysis of the deposited data

Results flagged for a closer look

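NOP10, a core gene of the box H/ACA particles, was below 0 on all 3 arrays of PR-338 (-0.12, -0.19 and -0.21 on slides 1, 2 and 3) and above 0 on all 3 arrays of PG-132 (0.26, 0.09 and 0.73). The fitted log2 ratios were -0.27 in PR-338 and 0.26 in PG-132, a difference of -0.54. The fit in PR-338 lies below each of its 3 arrays because the model has 1 dye coefficient for all mutants. NOP10 was noticed because every array of the first mutant lay on 1 side and every array of the other on the opposite side. Of all genes, 10.5% lay below 0 on all 3 arrays of PR-338 and 11.7% above 0 on all 3 of PG-132. The share of genes with both was not counted. The mutants have different references, and the difference was not tested.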

How the results depend on the processing

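The count of members called in a single mutant, 0 in each, became 1 in M1 without replicate 2 (range 0 to 1 over the slides left out) and with slide 2 turned, in PR-438 after quantile normalization, in PR-164 with the replicate block, without PY-231 replicate 1, centred on all probes and after the brightness loess, in PG-132 without replicate 3 (range 0 to 1) and with the arrays of the same reference only, and in PY-231 with slide 2 turned. In the mean of the 8 mutants the count of 2 became 1 without M1 replicate 1, without PY-231 replicate 1, without PR-438 and PG-259 replicate 1 (chosen after seeing the data), with no dye term, centred on all probes and after the loess, 7 with slide 2 turned, and 1 to 9 over the slides left out: 1 without slide 1, 9 without slide 2 (GAR1 not among them) and 4 without slide 3. It stayed at 2 after quantile normalization and with values floored, but with CBF5 in place of NOP1. The replicate block changed no other call of a member. GAR1 in that mean ran from -1.24 to -0.065 over the slides left out, was -0.79 with no dye term (adjusted p = 0.0781), and reversed to 1.09 with slide 2 turned. NOP1 ran from -0.54 to -0.23 and lost its call in other settings too: -0.11 with slide 2 turned, -0.38 without PY-231 replicate 1, -0.35 without M1 replicate 1, -0.37 centred on all probes, -0.38 after quantile normalization, -0.36 after loess, -0.32 without PR-438 and PG-259 replicate 1 and -0.38 with values floored, with limma adjusted p-values of 0.0503 to 0.521. NOP10 in PY-231 reversed to 1.05 with slide 2 turned (adjusted p = 0.0346). With slide 2 turned, member medians became -0.10 in M1, 0.15 in PG-353 and 0.078 in PY-231, and quantile normalization gave -0.27 in PY-231. The cause of these changes was not tested. Over all genes the calls in single mutants also moved with the setting, as in M1 with 10, against 472 with slide 2 turned, 105 without slide 2, 43 with the replicate block and 0 with no dye term. The mean of the 8 mutants could not be fitted with the arrays of the same reference only. Signal over background limits the values of dim spots, and those at or below 0 were left out.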

Other observations

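RRP46 and RRP43, which encode subunits of the exosome ring, differed between slides, a pattern seen only after the values were examined. RRP46 was above 0 on all 8 arrays of slide 2 and below 0 on all 8 of slide 3, with means of 0.33 ± 0.17 and -0.54 ± 0.13, and -0.17 ± 0.23 on slide 1 (SD, n = 8 arrays each). RRP43, another ring subunit, had 0.28 ± 0.15 on slide 2, -0.32 ± 0.27 on slide 3 and -0.04 ± 0.18 on slide 1. RRP42, of the same ring, did not share it and had -0.09 ± 0.19, 0.07 ± 0.21 and -0.04 ± 0.20 in the same order of slides. UTP4 averaged 0.43 ± 0.49 on slide 2, -0.30 ± 0.49 on slide 3 and -0.46 ± 0.33 on slide 1. RRP43, RRP46 and UTP4 were called in the mean of the 8 mutants with slide 2 turned and not otherwise, except that RRP46 and UTP4 were also called without slide 2.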
